A study of Mus musculus with 36 samples.

Results

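The miR-15/16 family of microRNAs (miRNAs) was followed through the mouse prostate as 7 mature miRNAs, listed as mmu-miR-15a-5p, mmu-miR-15b-5p, mmu-miR-15b-3p, mmu-miR-16-5p, mmu-miR-16-1-3p, mmu-miR-195a-5p and mmu-miR-497a-5p and written here without the species prefix. They were taken by name from the 1963 miRNAs listed in the deposited tables, and all 7 were among the 514 miRNAs with a mean of at least 1 RPM (reads of a miRNA per 1000000 miRNA reads of its library) that entered the tests. Small RNA was sequenced from ventral and lateral prostate lobes of male mice labelled as strain C56NL/6N. The lines carried an intact Elac2 gene (WT), a prostate-only deletion of Elac2 exon 8 by Cre under the probasin promoter (KO), or a homozygous threonine-for-alanine change of ELAC2 in the whole body, made with CRISPR, which lowers the stability of the protein (A537T). ELAC2 is the ribonuclease that trims the 3′ ends of precursor transfer RNAs. Each line was also crossed to TRAMP mice, in which 1 copy of a transgene makes the SV40 large-T and small-t antigens from the probasin promoter in prostatic epithelium, which gave the lines named with the suffix TRAMP. Mice were 10 or 30 weeks old, so there were 12 groups of 3 libraries.

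miRNAs are short RNAs cut from hairpin precursors by Drosha and Dicer and loaded into Argonaute, where bases 2 to 8, the seed, pair with messenger RNAs and repress them. Either arm of the hairpin can be kept, and the 5p and 3p names tell the arms apart. The miR-15/16 family is best known for restraining the cell cycle and survival through targets such as the cyclins D1, D3 and E1 and BCL2, and the miR-15a and miR-16-1 locus in DLEU2 is often lost in chronic lymphocytic leukaemia and lowered in human prostate cancer. In the mouse the family comes from several paired genes. Its 5p arms share a seed but not the rest of the sequence.

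The mature sequences below, from RefSeq for GRCm38.p6, show what unites and what separates the members, with the seed in capitals. These 5p arms all carry the same seed, AGCAGCA.
miR-15a-5p: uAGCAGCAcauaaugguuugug
miR-15b-5p: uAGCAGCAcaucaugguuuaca
miR-16-5p: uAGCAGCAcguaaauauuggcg
miR-195a-5p: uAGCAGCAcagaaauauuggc
miR-497a-5p: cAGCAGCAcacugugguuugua
miR-322-5p: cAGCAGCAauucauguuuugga
The 3p members and the 3p arm of the Mir16-2 hairpin each have a seed of their own.
miR-15b-3p: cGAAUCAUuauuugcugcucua
miR-16-1-3p: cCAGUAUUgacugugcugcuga
miR-16-2-3p: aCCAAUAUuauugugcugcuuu
Counted from the 5′ end, miR-195a-5p differs from miR-16-5p only by G10A and U11G over the 21 bases they share, while miR-15b-5p differs from miR-15a-5p by A12C, G20A, U21C and G22A. How reads that match more than 1 such sequence were assigned is not given in the sources used here.

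On GRCm38, Mir15b (chr3:69009772-69009835) and Mir16-2 (chr3:69009902-69009996) lie side by side on the plus strand in introns of Smc4, which encodes a condensin subunit. Mir15a (chr14:61632027-61632110) and Mir16-1 (chr14:61631880-61631972) lie on the minus strand in the non-coding gene Dleu2, the first in an intron and the second overlapping an exon. Mir497 (chr11:70234717-70234800) and Mir195a (chr11:70235042-70235135) lie on the plus strand. Mir195a lies in no other annotated gene, and Mir497 faces Mir497b on the opposite strand. The mature miR-16-5p is the same from Mir16-1 and Mir16-2, so its reads cannot be divided between the loci, whereas miR-16-1-3p and miR-16-2-3p each report a single locus. The hairpins of the Smc4 pair are shown, with the mature arms in capitals, because the arms of Mir15b shifted against each other in the data.
Mir15b: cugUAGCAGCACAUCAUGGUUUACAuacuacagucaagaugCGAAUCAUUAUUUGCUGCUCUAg
Mir16-2: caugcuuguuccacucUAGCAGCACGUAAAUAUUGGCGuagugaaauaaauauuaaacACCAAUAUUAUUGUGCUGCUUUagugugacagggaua

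Libraries held 4544257 to 21870210 miRNA reads, except for library 35 (A537T, 10 weeks) with 655455, so its low miRNAs were measured least precisely. The columns name no group, and each library was placed by the tables it appears in. Elac2 messenger RNA was not measured here, so no value checks these placements. The library numbers run in blocks by TRAMP status and age, so any preparation batch that follows the numbering cannot be told apart from TRAMP or age. The 10-week libraries without TRAMP also differed in tissue makeup. Skeletal muscle miRNAs took 9.71% to 30.6% of reads in WT, 0.734% to 6.49% in KO and 3.72% to 13.7% in A537T, against 0.218% to 3.09% in the 10-week TRAMP libraries. At 30 weeks their share was 0.355% to 0.820% without TRAMP and 0.187% to 0.936% with it.

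The comparison of mice with and without TRAMP asked how the family differs in tissue with a transgene-driven neoplasia. Every member was higher with TRAMP when the 3 lines were averaged, at both ages, and miR-15b-5p differed most, by 5.58-fold at 10 weeks and 5.08-fold at 30 weeks on the scale of RPM + 1. The 5 family 5p arms together stood at 2798 ± 468 RPM (SD, n = 18) with TRAMP and 1315 ± 283 RPM (SD, n = 18) without it. In bulk tissue, a larger number of cells of a type and more RNA per cell cannot be told apart.

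**Figure D1:**
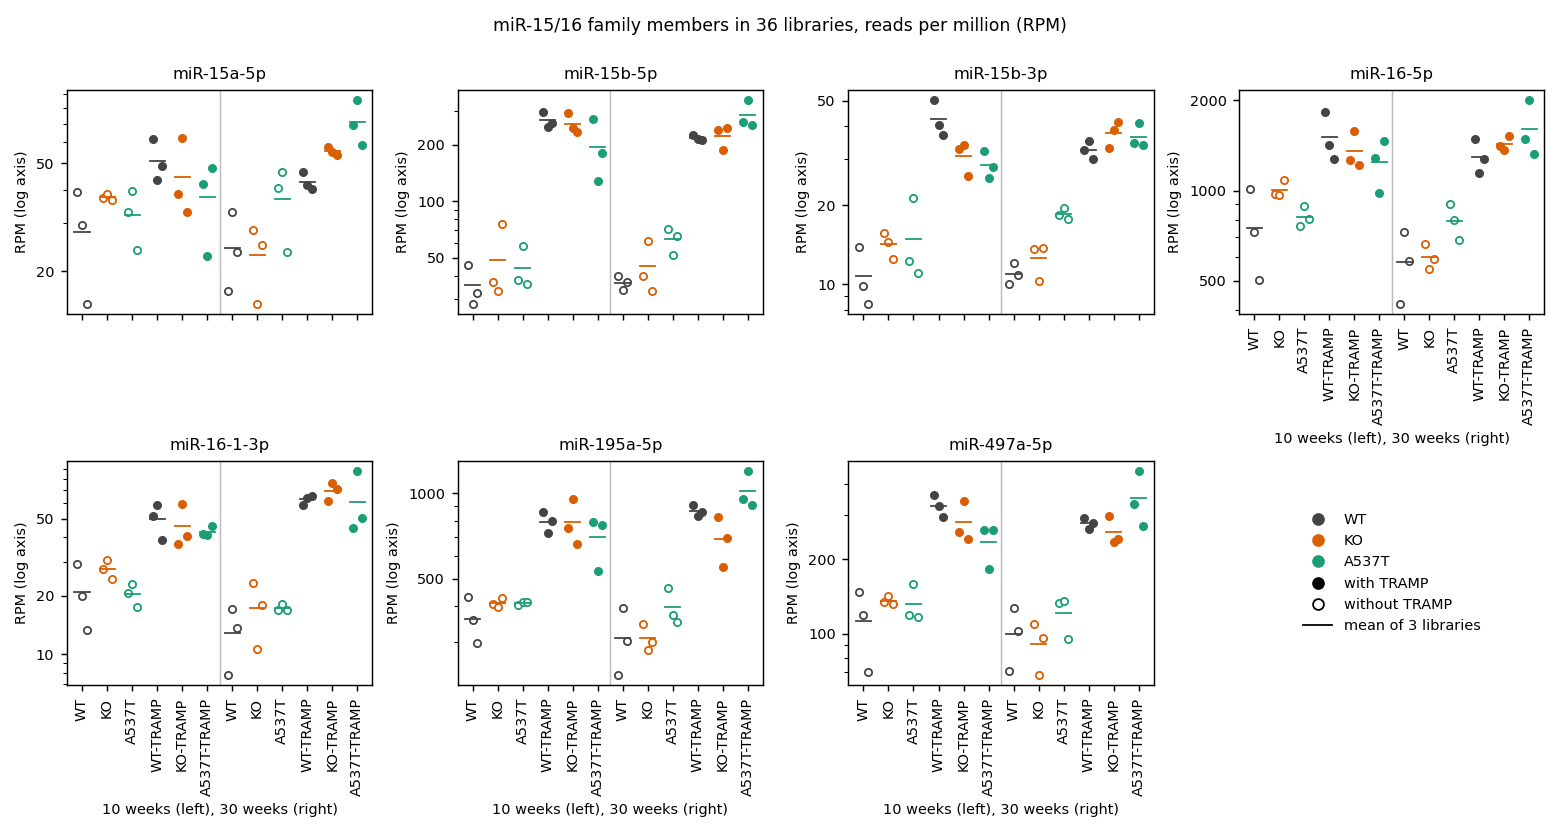
Each panel plots 1 family member, with RPM on a log axis against the 12 groups (10 weeks left, 30 weeks right). Each point is 1 library, filled with TRAMP and open without, and short bars mark group means. miR-15b-5p sat at 128 to 345 RPM in the 18 TRAMP libraries and at 28.4 to 75.9 RPM in the other 18.

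miR-15b-5p, the 5p arm of the Smc4 locus, was low in every library without the transgene. At 10 weeks its level was 46.0, 28.4 and 32.6 RPM in WT, 37.3, 33.3 and 75.9 RPM in KO and 38.3, 58.0 and 36.4 RPM in A537T. With TRAMP at that age it was 299, 249 and 260 RPM in WT-TRAMP, 295, 244 and 232 RPM in KO-TRAMP and 275, 128 and 179 RPM in A537T-TRAMP. The lowest TRAMP library therefore stood above the highest library without TRAMP. At 30 weeks the levels were 39.9, 33.6 and 37.2 RPM in WT, 40.0, 61.7 and 33.1 RPM in KO and 71.1, 51.4 and 65.3 RPM in A537T. With TRAMP at 30 weeks they were 225, 215 and 211 RPM in WT-TRAMP, 239, 187 and 245 RPM in KO-TRAMP and 263, 345 and 254 RPM in A537T-TRAMP. Again no library of one background reached the other. By the mean of log2(RPM + 1), the 6 TRAMP groups ranked from A537T-TRAMP at 10 weeks (7.54) to A537T-TRAMP at 30 weeks (8.16) and the 6 groups without TRAMP from WT at 10 weeks (5.17) to A537T at 30 weeks (5.98). Neighbours in this order mostly overlapped. At 30 weeks the 3 A537T libraries lay above the 3 of WT, as for 7.59% of tested miRNAs, and the 3 A537T-TRAMP libraries above those of WT-TRAMP, as for 15.2%. Neither mutant difference passed the test given below. The TRAMP difference in log2(RPM + 1) was 2.48 ± 0.16 (SE, limma adjusted p = 5.02e-13) at 10 weeks and 2.34 ± 0.16 (adjusted p = 1.24e-12) at 30 weeks, averaged over the lines. Within single lines it ran from 2.07 in A537T to 2.91 in WT at 10 weeks and from 2.18 in A537T to 2.53 in WT at 30 weeks, and each passed the test.

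miR-16-5p was the most abundant member in RPM, a scale that is not corrected for the ligation preferences of single sequences and compares arms of 21 to 22 bases. At 10 weeks without TRAMP its level was 1011, 730 and 505 RPM in WT, 972, 967 and 1081 RPM in KO and 763, 888 and 807 RPM in A537T. With TRAMP it was 1825, 1415 and 1275 RPM in WT-TRAMP, 1263, 1583 and 1221 RPM in KO-TRAMP and 1289, 978 and 1464 RPM in A537T-TRAMP. Each line's TRAMP libraries lay above its libraries without TRAMP, as for 24.3% of tested miRNAs in WT, 23.2% in KO and 16% in A537T, but the lowest A537T-TRAMP library lay below a WT library at 1011 RPM and a KO library at 1081 RPM. At 30 weeks miR-16-5p stood at 419, 730 and 582 RPM in WT, 665, 546 and 589 RPM in KO and 901, 796 and 686 RPM in A537T. The 30-week TRAMP levels were 1481, 1142 and 1271 RPM in WT-TRAMP, 1410, 1362 and 1521 RPM in KO-TRAMP and 1484, 2004 and 1327 RPM in A537T-TRAMP, all above those without the transgene, as for 8.37% of tested miRNAs. The average difference in log2(RPM + 1) was 0.68 ± 0.13 (SE, limma adjusted p = 3.81e-05) at 10 weeks and 1.15 ± 0.13 (adjusted p = 1.54e-08) at 30 weeks. At 10 weeks KO missed the threshold (0.42, limma adjusted p = 0.112) and A537T passed it narrowly (0.58, adjusted p = 0.0366). The KO difference passed with median-of-ratios scaling at 0.81 (limma adjusted p = 4.39e-05), with TMM at 0.66 (adjusted p = 0.00132), with edgeR at 0.62 (adjusted p = 0.00252) and with DESeq2 at 0.79 (adjusted p = 4.48e-08). The A537T difference missed without muscle miRNAs in the library total (0.46, limma adjusted p = 0.0640). The A537T call was also lost without any one of libraries 4, 6, 34, 35 and 36, with differences of 0.55, 0.46, 0.54, 0.64 and 0.57.

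miR-15b-3p, the opposite arm of the Mir15b hairpin, separated the backgrounds as cleanly at a smaller size. At 10 weeks it ranged from 25.3 to 50.4 RPM with TRAMP (median 32.6) and from 8.42 to 21.4 RPM without (median 12.4). At 30 weeks it ranged from 30.0 to 41.6 RPM with TRAMP (median 34.6) and from 10.0 to 19.6 RPM without (median 13.7), so no library of either background reached the other at any age. The average difference in log2(RPM + 1) was 1.31 ± 0.12 (SE) at both ages, with limma adjusted p values of 4.80e-10 at 10 weeks and 4.82e-10 at 30 weeks. WT had the largest line value at 10 weeks (1.91), against 1.06 in KO and 0.94 in A537T.

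miR-16-1-3p, which comes from the Dleu2 locus alone, ranged from 36.9 to 88.1 RPM with TRAMP (median 55.1) and from 7.80 to 30.7 RPM without it (median 18.1). Its libraries also did not overlap. The difference in log2(RPM + 1) averaged 1.00 ± 0.17 (SE, limma adjusted p = 1.07e-05) at 10 weeks and 1.99 ± 0.17 (adjusted p = 8.11e-11) at 30 weeks. In KO at 10 weeks it was 0.68 and missed the threshold (limma adjusted p = 0.0549), although the 36.9, 59.3 and 40.8 RPM of KO-TRAMP lay above the 27.6, 30.7 and 24.4 RPM of KO. It passed under 6 alternatives, at 0.68 with a mean of at least 10 RPM required (limma adjusted p = 0.0494), 0.55 with 10 RPM added (adjusted p = 0.0426), 0.92 with TMM (adjusted p = 0.00235), 1.06 with median-of-ratios scaling (adjusted p = 0.000280), 0.90 with edgeR (adjusted p = 0.00462) and 1.07 with DESeq2 (adjusted p = 1.25e-05). It also passed when any one of libraries 14, 19, 20, 22, 23, 28 and 30, none of them in that contrast, was left out.

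miR-15a-5p, the 5p arm of the same locus, had the smallest average difference of the members at both ages. It ranged from 22.8 to 85.5 RPM with TRAMP (median 48.4) and from 15.2 to 46.4 RPM without (median 31.3), and the backgrounds overlapped. At 30 weeks the average difference in log2(RPM + 1) was 1.03 ± 0.19 (SE, limma adjusted p = 4.98e-05). KO passed there on its own at 1.28. WT at 0.83 (limma adjusted p = 0.0513) and A537T at 0.97 (adjusted p = 0.0514) did not. WT passed without any one of libraries 5, 8, 9, 16, 20, 23, 26, 27, 28 and 30 (0.83 to 1.06), and A537T without any one of libraries 5, 6, 8, 19, 20, 23, 26, 28, 30, 35 and 36 (0.97 to 1.15). Only library 20 for WT and library 26 for A537T belong to these contrasts. Leaving out any of the others kept the differences at 0.83 and 0.97 and moved only the p-value. Both lines passed with median-of-ratios scaling (0.86 and 0.85), edgeR (0.89 and 0.88) and DESeq2 (0.88 and 0.82). At 10 weeks the average was 0.43 ± 0.19 (SE, limma adjusted p = 0.0430), with 0.93 in WT (adjusted p = 0.0261), 0.19 in KO (adjusted p = 0.632) and 0.18 in A537T (adjusted p = 0.698). With DESeq2 the KO difference was 0.58 and passed (adjusted p = 0.0455). The WT call was lost without muscle miRNAs in the total (0.62, limma adjusted p = 0.116), without library 1 (0.79, limma adjusted p = 0.111) or library 30 (0.56, adjusted p = 0.195). The average was lost without any one of libraries 1, 3, 4, 6, 8, 30, 31, 32, 33, 34 and 36, at 0.31 to 0.44.

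The clustered pair on chromosome 11 moved alike. miR-195a-5p ranged from 534 to 1197 RPM with TRAMP (median 812) and from 230 to 465 RPM without (median 385). miR-497a-5p ranged from 182 to 452 RPM with TRAMP (median 275) and from 68.3 to 159 RPM without (median 119). Neither overlapped between backgrounds, and both differed in every line at both ages. For miR-195a-5p the average difference in log2(RPM + 1) was 0.94 ± 0.11 (SE, limma adjusted p = 6.52e-08) at 10 weeks and 1.34 ± 0.11 (adjusted p = 8.68e-11) at 30 weeks. For miR-497a-5p it was 1.15 ± 0.14 (SE, limma adjusted p = 1.52e-07) and 1.51 ± 0.14 (adjusted p = 1.25e-09). The miR-497a-5p call in A537T at 10 weeks (0.83, limma adjusted p = 0.0125) was lost without library 4 (0.74, adjusted p = 0.058) or library 36 (0.75, adjusted p = 0.053).

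**Figure D2:**
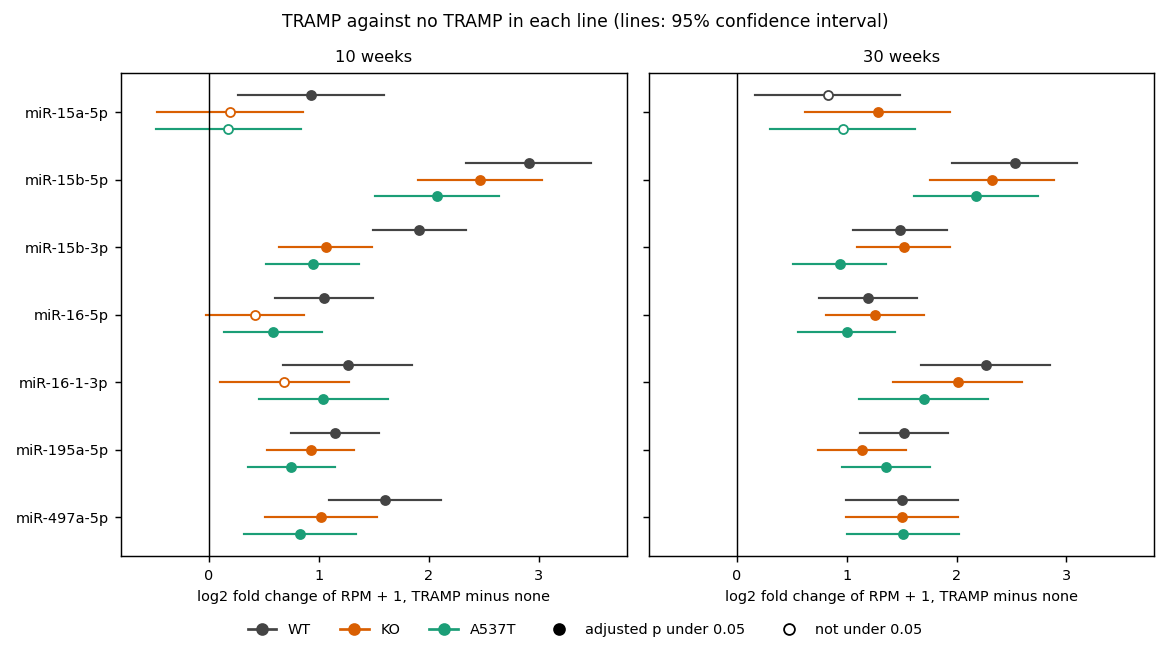
The TRAMP difference in log2(RPM + 1) is plotted on the horizontal axis for each member, line and age, with 95% confidence intervals from limma. Filled points passed an adjusted p of 0.05 and open points did not. miR-15b-5p lies farthest right in every line, at 2.07 to 2.91, and the open points belong to miR-15a-5p, miR-16-5p and miR-16-1-3p.

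Counted by line, the members higher with TRAMP at 10 weeks were 7 of 7 in WT, 4 of 7 in KO and 6 of 7 in A537T, where 19.8%, 14.4% and 12.6% of all tested miRNAs were higher. At 30 weeks they were 6 of 7 in WT, 7 of 7 in KO and 6 of 7 in A537T, beside 15.4%, 27.2% and 8.56% of all tested miRNAs. The 4 of 7 in KO at 10 weeks became 6 of 7 with median-of-ratios scaling, TMM or edgeR and 7 of 7 with DESeq2. At 30 weeks, these 4 alternatives called 7 of 7 in every line. With no filter, or without muscle miRNAs in the total, the 10-week counts fell to 6 of 7 in WT and 5 of 7 in A537T. KO stayed at 4 of 7 under both. Averaged over the lines, 7 of 7 members were higher at 10 weeks and 7 of 7 at 30 weeks, beside 25.5% and 28.8% of all, and 0 were lower, beside 39.9% and 16.3%. In 5 of the 7 members all 18 TRAMP libraries lay above all 18 others, a pattern shown by 3.7% of tested miRNAs. In 4 of the 7, namely miR-15b-5p, miR-15b-3p, miR-195a-5p and miR-497a-5p, the difference passed in all 6 line and age contrasts, beside 3.89% of tested miRNAs. Ordered by the average difference among the 514 tested miRNAs, miR-15b-5p ranked 4 at 10 weeks and 5 at 30 weeks, and miR-16-1-3p ranked 49 and 10. The median difference of all tested miRNAs in log2(RPM + 1) was -0.28 at 10 weeks and 0.07 at 30 weeks, and relative to it the members stood 0.72 to 2.77 and 0.95 to 2.27 higher. With median-of-ratios scaling, calls over all miRNAs at 30 weeks changed from 148 higher and 84 lower to 118 higher and 116 lower, and all 7 members were still higher.

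**Figure D3:**
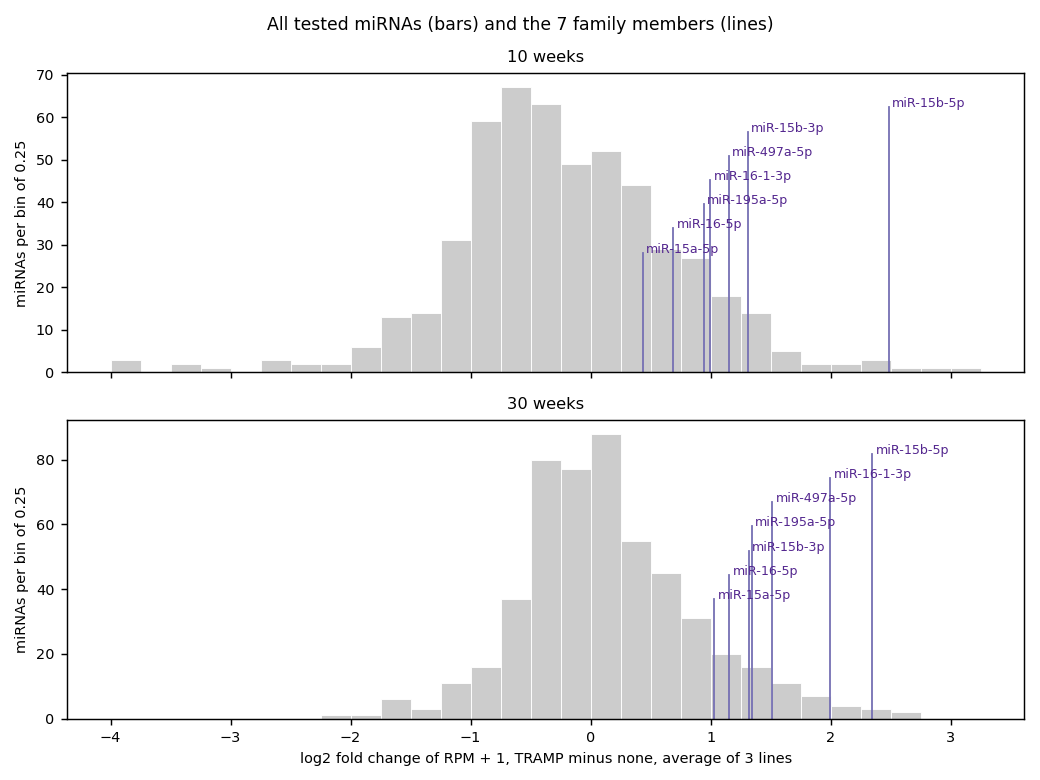
Bars count all 514 tested miRNAs in bins of 0.25 by their TRAMP difference in log2(RPM + 1), averaged over the 3 lines, at 10 weeks (top) and 30 weeks (bottom). Vertical lines mark the 7 members, all right of 0, from 0.43 to 2.48 at 10 weeks and from 1.03 to 2.34 at 30 weeks.

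Markers of other cells moved with the same contrast at 10 weeks. Averaged over the lines, 5 of 5 skeletal muscle miRNAs were lower with TRAMP (median log2 difference -3.48), as were 5 of 5 of stroma and smooth muscle (median -0.71), 3 of 4 of red cells (median -1.39) and 2 of 2 of endothelium (median -1.12). Of 7 epithelial miRNAs, 5 were higher and 1 was lower (median 0.49), and their summed share was 6.33% to 9.29% with TRAMP and 3.84% to 6.88% without. At 30 weeks, 2 of 5 muscle miRNAs were lower and 1 higher, 1 of 5 stromal miRNAs was lower, 0 of 2 endothelial ones moved, 1 of 4 red cell miRNAs rose and 1 fell, and 2 of 7 epithelial ones rose and 2 fell. White cell miRNAs were higher for 2 of 4 at each age and lower for 2 of 4 at 10 weeks. Beside these counts, 39.9% of all tested miRNAs were lower and 25.5% higher at 10 weeks, and 16.3% and 28.8% at 30 weeks. All of these markers passed the low-level filter and none was at 0 over the series. Leaving the muscle miRNAs out of the library total kept 6 of the 7 averages at 10 weeks and 7 of 7 at 30 weeks, the exception being miR-15a-5p at 10 weeks (0.28, limma adjusted p = 0.158). The part of the other marker lists in the result was not tested.

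In a ratio between members the scaling of the library cancels, apart from the 1 RPM added to each value, which weighs most for the scarcest members. With 10 RPM added instead, the number of ratio calls was 7 as before. Values here are log2 ratios of RPM + 1, tested by exact permutation of TRAMP status within lines (two-sided, 8000 arrangements, adjusted over 20 tests). The ratio of miR-15b-5p to miR-16-5p was -2.53 ± 0.31 (SD, n = 9) with TRAMP and -4.32 ± 0.37 (SD, n = 9) without at 10 weeks. At 30 weeks it was -2.57 ± 0.15 (SD, n = 9) and -3.77 ± 0.42 (SD, n = 9). Both differences, 1.80 and 1.19, had an exact permutation p of 0.00025, the smallest possible, and an adjusted p of 0.00167. As a share of the 5 family 5p arms in RPM, miR-15b-5p was 8.63% ± 1.16 (SD, n = 18) with TRAMP and 3.56% ± 1.17 (SD, n = 18) without, and miR-16-5p was 50.4% ± 3.09 and 57.2% ± 2.34.

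The arms of Mir15b were also balanced differently. The log2 ratio of miR-15b-5p to miR-15b-3p was 2.77 ± 0.29 (SD, n = 9) with TRAMP and 1.60 ± 0.41 (SD, n = 9) without at 10 weeks, a difference of 1.17 (exact permutation, adjusted p = 0.00167). At 30 weeks it was 2.72 ± 0.24 and 1.69 ± 0.38 (SD, n = 9 each), a difference of 1.03 (exact permutation, adjusted p = 0.002). The difference was positive in each line, from 0.99 in WT to 1.40 in KO at 10 weeks and from 0.81 in KO to 1.24 in A537T at 30 weeks. Among the libraries without TRAMP, library 33 (KO, 10 weeks) at 2.52 and library 23 (KO, 30 weeks) at 2.47 stood highest, and they were also the libraries in which miR-15b-5p reached 75.9 and 61.7 RPM. Both arms are in capitals in the Mir15b hairpin above.

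At the Dleu2 locus miR-15a-5p stood lower against miR-16-1-3p with TRAMP. The log2 ratio of miR-15a-5p to miR-16-1-3p was lower with TRAMP by 0.56 at 10 weeks (exact permutation, adjusted p = 0.0025) and by 0.97 at 30 weeks (adjusted p = 0.002). The ratio of miR-195a-5p to miR-497a-5p was 1.45 ± 0.15 with TRAMP and 1.66 ± 0.21 without at 10 weeks (SD, n = 9 each), and the difference missed the threshold (-0.21, exact permutation, adjusted p = 0.0517). At 30 weeks that difference was -0.17 (exact permutation, adjusted p = 0.0873). The summed chromosome 11 pair against the summed miR-15a-5p, miR-15b-5p and miR-16-5p also missed the threshold, with differences of 0.16 (exact permutation, adjusted p = 0.0517) and 0.12 (adjusted p = 0.148). The first ratio passed at 10 weeks without any one of libraries 7, 22, 26, 27, 32 and 35 (-0.26 to -0.21) and at 30 weeks without library 26 (-0.21), and the second at 10 weeks without any one of libraries 1, 6, 22, 26, 27 and 30 (0.16 to 0.18).

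**Figure D4:**
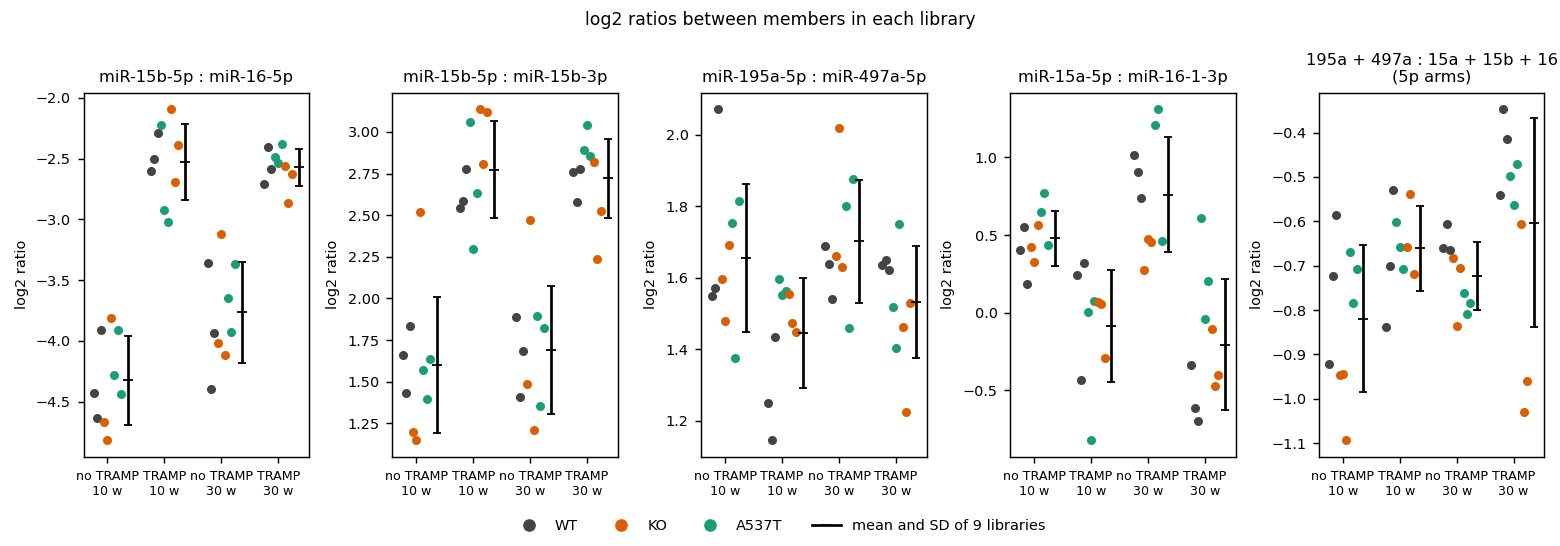
Each panel shows a log2 ratio between members in every library (points, coloured by line) for the 4 combinations of TRAMP and age, with the mean and SD of 9 libraries. The TRAMP libraries stand higher for miR-15b-5p to miR-16-5p (means -2.53 and -2.57 against -4.32 and -3.77) and for miR-15b-5p to miR-15b-3p.

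The partner arms, which the choice of members left out, gave a separate reading of each hairpin. miR-16-2-3p, the 3p arm from the Smc4 locus, was scarce at 4.99 to 10.8 RPM with TRAMP (median 7.64) and 0.293 to 5.41 RPM without (median 2.55). Its average difference in log2(RPM + 1) was 1.14 ± 0.18 (SE, limma adjusted p = 5.38e-06) at 10 weeks and 1.54 ± 0.18 (adjusted p = 5.03e-08) at 30 weeks. miR-195a-3p ranged from 62.0 to 126 RPM with TRAMP and from 27.2 to 54.2 RPM without, with no overlap. Its difference was 1.19 ± 0.14 (SE, limma adjusted p = 6.68e-08) and 1.27 ± 0.14 (adjusted p = 2.50e-08). miR-15a-3p rose by 0.62 ± 0.19 (SE, limma adjusted p = 0.0103) at 30 weeks, and its 0.28 at 10 weeks did not pass (adjusted p = 0.191), although it did with median-of-ratios scaling (0.45, limma adjusted p = 0.0167), TMM (0.39, adjusted p = 0.0412) and DESeq2 (0.54, adjusted p = 0.0326) and without library 28 (0.43). miR-497a-3p had 39 reads with TRAMP and 12 without in all libraries and fell below the filter. Partner arms were thus higher for 2 of 3 tested at 10 weeks and 3 of 3 at 30 weeks. Of all tested miRNAs, 25.5% and 28.8% were higher at those ages.

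Of the other miRNAs with the AGCAGCA seed, only miR-322-5p, from the X chromosome, was above the filter. At 10 weeks it ranged from 6.12 to 20.1 RPM with TRAMP and from 12.0 to 30.5 RPM without. At 30 weeks its median was 19.1 RPM with TRAMP and 10.4 RPM without, and the backgrounds overlapped at both ages. It fell by 0.62 on the log2 scale at 10 weeks (limma adjusted p = 0.0196), a call lost without library 7 (-0.46) or library 28 (-0.51), and rose by 0.70 at 30 weeks (adjusted p = 0.0139). miR-195b had 25 reads with TRAMP and 19 without, and miR-6342, miR-6353 and miR-6419 had 0 reads. miR-503-5p, chosen after its values were seen, is the neighbour of miR-322-5p on the X chromosome, and its seed differs from the family's at the last base.
miR-503-5p: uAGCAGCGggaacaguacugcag
At 10 weeks all 9 TRAMP libraries of miR-503-5p (1.28 to 2.54 RPM) lay below the 9 others (3.46 to 7.63 RPM), as for 5.06% of tested miRNAs, and it fell by 1.04 on the log2 scale (limma adjusted p = 4.17e-05). At 30 weeks it ranged from 1.98 to 10.9 RPM with TRAMP and from 1.41 to 3.85 RPM without, with a rise of 0.50 (limma adjusted p = 0.0348) that was lost with median-of-ratios scaling (0.40), with TMM (0.43) and without any one of libraries 10, 12, 13, 16, 19, 23 and 26 (0.35 to 0.47).

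**Figure D5:**
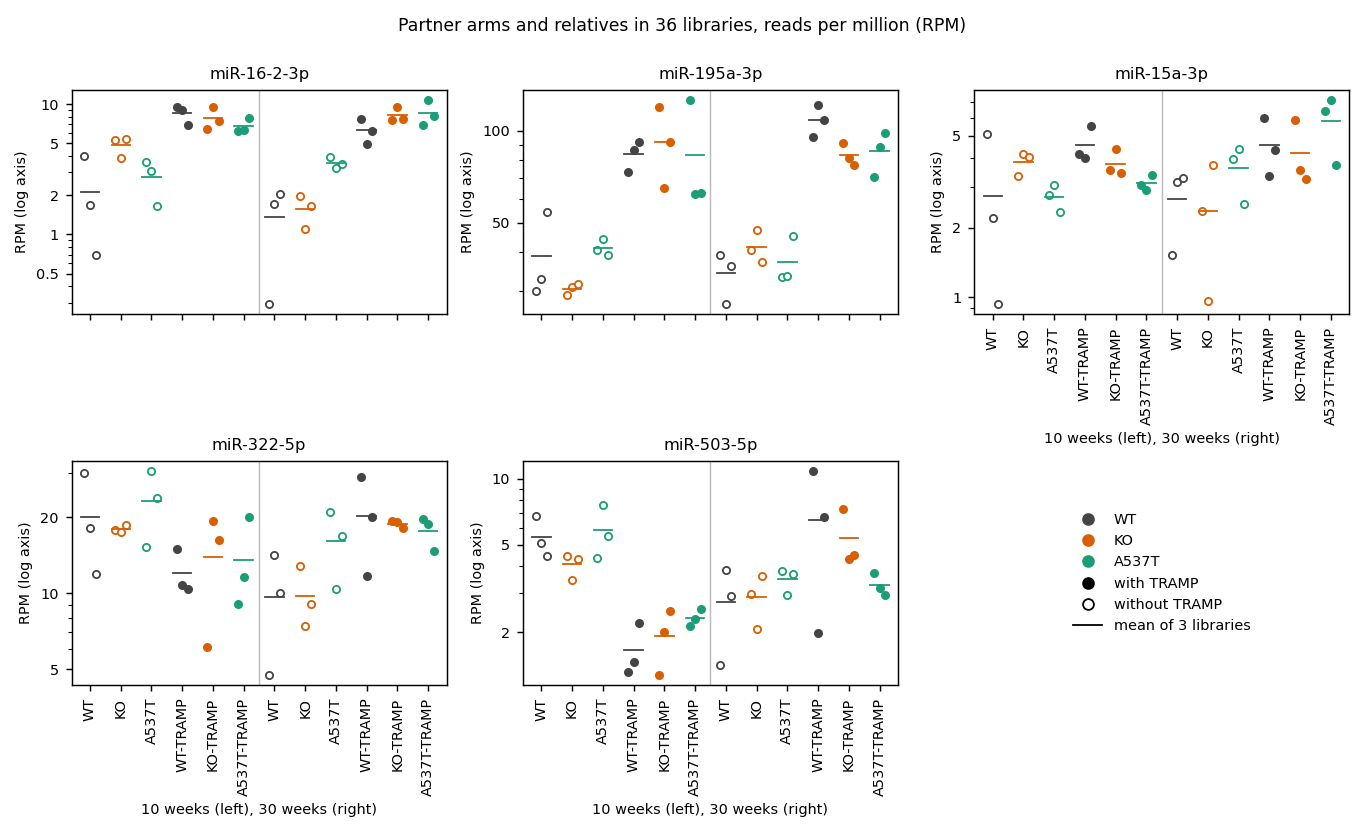
RPM on a log axis is plotted by group and library for the partner arms and the related miR-322-5p and miR-503-5p, filled with TRAMP and open without, with short bars at group means. miR-195a-3p sits at 62.0 to 126 RPM with TRAMP and 27.2 to 54.2 RPM without, while miR-503-5p sits lower with TRAMP at 10 weeks.

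Across the 12 group means of log2(RPM + 1), members correlated with each other from r = 0.847 (miR-15a-5p and miR-15b-5p) to r = 0.989 (miR-195a-5p and miR-497a-5p). These points share libraries and are ordered mainly by TRAMP, so r is a description. Among 158 other miRNAs with a mean of at least 100 RPM, the closest to miR-16-5p were miR-101b-3p (r = 0.953), miR-106b-5p (r = 0.952) and miR-17-5p (r = 0.932). The closest to miR-15b-5p were miR-25-3p (r = 0.988), the merged 3p arm of let-7a-1 and let-7c-2 (r = 0.984) and miR-93-5p (r = 0.983). For miR-195a-5p they were miR-25-3p (r = 0.952), the same let-7 arm (r = 0.949) and miR-106b-5p (r = 0.939). Several of these belong to the miR-17-92 and miR-106b-25 clusters, which are known to promote proliferation. In that list 9 of 9 miRNAs were higher with TRAMP at each age, beside 25.5% of all tested miRNAs at 10 weeks and 28.8% at 30 weeks. The median log2 difference of the list was 1.29 at 10 weeks and 1.88 at 30 weeks, and miR-25-3p differed by 2.27 at 10 weeks. Those named above were picked for following members ordered mainly by TRAMP, so their rise is no separate support. A link to proliferation was not tested.

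The comparison of ages gave few calls in the family with limma, and which members were called varied with the scaling and the test. In KO, miR-16-5p fell with age by 0.75 on the log2 scale (limma adjusted p = 0.0173), from 972, 967 and 1081 RPM to 665, 546 and 589 RPM, the only member of 7 called, beside 14.8% of all tested miRNAs called and 12.8% lower. The call was lost without library 23 (-0.68), library 24 (-0.74) or library 33 (-0.70) and at -0.29 with median-of-ratios scaling. Over the 3 lines without TRAMP, miR-16-1-3p fell by 0.52 on the log2 scale (limma adjusted p = 0.0144) and miR-16-5p by 0.38 (adjusted p = 0.0174), 2 of 7 members beside 20.6% of all tested miRNAs lower. The second call was lost without library 19 (-0.31) or library 28 (-0.30) and at -0.19 with median-of-ratios scaling, under which the calls over all miRNAs turned from 66 higher and 106 lower to 126 higher and 93 lower. Without muscle miRNAs in the total, 4 of 7 members were lower, beside 150 of the 514 tested miRNAs. They included miR-195a-5p (-0.40, limma adjusted p = 0.00427) and miR-497a-5p (-0.44, adjusted p = 0.0105). These 2 also passed with edgeR, at -0.23 (adjusted p = 0.0485) and -0.28 (adjusted p = 0.0411). Over the TRAMP lines, miR-16-1-3p rose by 0.48 (limma adjusted p = 0.0328), 1 of 7 members beside 20.2% higher. That call was lost without any one of libraries 3, 5, 7, 9, 12, 14, 17 and 18 (0.38 to 0.47), and the split of all calls went from 104 higher and 37 lower to 74 higher and 62 lower with median-of-ratios scaling. In the same average miR-15b-5p changed by 0.04 (95% confidence interval -0.29 to 0.36) with TRAMP and 0.17 (-0.15 to 0.50) without. The other age contrasts called 0 members with limma, beside 9.53% of all tested miRNAs in WT, 15.2% in A537T, 7.59% in WT-TRAMP, 22.2% in KO-TRAMP and 5.45% in A537T-TRAMP. In WT, miR-16-5p (-0.35, limma adjusted p = 0.338) and miR-16-1-3p (-0.65, adjusted p = 0.148) were lower with age and passed under 5 alternatives each, namely median-of-ratios scaling, TMM, a total without muscle miRNAs, edgeR and DESeq2. Their values there ran from -0.67 to -0.41 and from -0.95 to -0.70. In A537T, miR-15b-3p stood at 0.36 (limma adjusted p = 0.254) and passed at 0.53 with median-of-ratios scaling or TMM, at 0.72 with DESeq2 and at 0.63 without the shallow library 35 (adjusted p = 0.0481). In KO-TRAMP, miR-195a-5p passed at -0.44 with median-of-ratios scaling, -0.49 with edgeR and -0.43 with DESeq2. Over all 8 age contrasts, 15 of 56 member tests had an unadjusted p under 0.05, 4 passed with limma and 8 each with edgeR and DESeq2. Per contrast, 0 to 5 of 7 members had an unadjusted limma p under 0.05, beside 92 to 226 of the 514 tested miRNAs. No share of all miRNAs is given for the edgeR and DESeq2 counts. The ratio of miR-15b-5p to miR-16-5p was higher by 0.56 at 30 than at 10 weeks without TRAMP (exact permutation, adjusted p = 0.0379), and this was lost without any one of libraries 19, 21, 23, 25, 28, 29, 31, 32, 34 and 36 (0.45 to 0.56).

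The TRAMP difference itself was larger at 30 than at 10 weeks in KO for 2 of 7 members, beside 31.9% of all tested miRNAs called and 27.8% higher. The change was 0.84 ± 0.31 (SE, limma adjusted p = 0.0383) for miR-16-5p and 1.33 ± 0.40 (adjusted p = 0.0164) for miR-16-1-3p on the log2 scale. All tested miRNAs had a median of 0.62 in that contrast, so the former stood 0.22 above it. miR-16-5p lost the call without any one of libraries 7, 9, 17, 18, 23, 24, 31, 32 and 33 (0.76 to 0.87) and stood at 0.14 with median-of-ratios scaling. miR-16-1-3p lost it without library 7 (1.19) or library 23 (1.03) and stood at 0.66 with that scaling. miR-15a-5p missed the threshold at 1.09 (limma adjusted p = 0.0637) and passed without library 8 (1.35), library 22 (1.27) or library 30 (1.09). Library 30 is not in that contrast. WT and A537T had 0 members called with limma, beside 9.34% and 2.72% of all. In WT, miR-16-1-3p stood at 1.00 (limma adjusted p = 0.115) and passed with median-of-ratios scaling (1.10), TMM (1.22), a total without muscle miRNAs (1.31), edgeR (1.28, adjusted p = 0.00993) and DESeq2 (1.14, adjusted p = 0.00353). Over the 7 contrasts of this kind, those of the mutants included, 9 of 49 member tests had an unadjusted limma p under 0.05. Per contrast that was 0 to 3 of 7 members, beside 22 to 232 of the 514 tested miRNAs. With each of limma, edgeR and DESeq2, 2 member tests passed, but not the same 2. With edgeR and DESeq2 they were miR-16-1-3p in WT and miR-195a-5p in the KO difference with against without TRAMP at 30 weeks, while in KO miR-16-5p was at 0.33 with edgeR (adjusted p = 0.224) and 0.16 with DESeq2 (adjusted p = 0.517), and miR-16-1-3p at 0.81 (adjusted p = 0.0591) and 0.65 (adjusted p = 0.0803).

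The study's own question was how KO and A537T differ from their controls. With limma, 0 of 56 member tests passed over the 8 comparisons, 7 had an unadjusted p under 0.05, and 2 passed with edgeR and 5 with DESeq2. Per comparison, 0 to 3 of 7 members had an unadjusted limma p under 0.05, beside 26 to 104 of the 514 tested miRNAs. For the edgeR and DESeq2 counts no share of all miRNAs is given. The shares that follow are from limma. At 10 weeks 3.89% of all tested miRNAs were called in KO and 0.195% in A537T, and at 30 weeks 0.584% in KO and 0% in A537T. With TRAMP, 6.23% were called in KO-TRAMP at 30 weeks and 0% in the other 3 comparisons. KO and A537T of a background and age share their control libraries. The member differences in log2(RPM + 1) ran from 0.20 to 0.51 for KO and from 0.03 to 0.41 for A537T at 10 weeks, and from -0.12 to 0.40 and from 0.30 to 0.74 at 30 weeks. With TRAMP they ran from -0.46 to -0.02 for KO-TRAMP and from -0.56 to -0.19 for A537T-TRAMP at 10 weeks, and from -0.35 to 0.37 and from -0.10 to 0.71 at 30 weeks. With standard errors of 0.19 to 0.32, these data do not show that the lines are alike.

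Single members came nearest to a difference in A537T at 30 weeks. miR-15b-3p was at 18.4, 19.6 and 17.7 RPM in A537T and 10.0, 12.0 and 10.8 RPM in WT, so all 3 A537T libraries lay above WT, as for the 7.59% of tested miRNAs given above. The log2 difference was 0.71 (95% confidence interval 0.29 to 1.13, limma adjusted p = 0.177), and it passed with edgeR at 0.78 (adjusted p = 0.0353), with DESeq2 at 0.83 (adjusted p = 0.00132) and with 2 other scalings. miR-15b-5p, the other arm, was at 0.74 in the same contrast (95% confidence interval 0.17 to 1.30, limma adjusted p = 0.319). miR-16-5p was at 0.49 (95% confidence interval 0.04 to 0.93, limma adjusted p = 0.525), and miR-195a-5p at 0.39 (-0.01 to 0.78, adjusted p = 0.525), both of which passed with DESeq2. miR-16-5p also passed with median-of-ratios scaling (0.56, limma adjusted p = 0.0225) and TMM (0.66, adjusted p = 0.0147). In KO at 30 weeks, miR-16-1-3p was at 0.40 (limma adjusted p = 0.544) and at 0.75 with DESeq2 (adjusted p = 0.0101), and miR-16-5p passed with DESeq2 at 0.36 (adjusted p = 0.0481). In KO-TRAMP at 30 weeks, miR-195a-5p was at -0.35 (limma adjusted p = 0.308) and passed with edgeR at -0.49 (adjusted p = 0.0499). None of the 4 contrasts of mutant difference with TRAMP against without called a member with limma (KO 0.389% and A537T 0% of all tested miRNAs at 10 weeks, 7.98% and 0% at 30 weeks). With median-of-ratios scaling, miR-195a-5p passed in KO at 30 weeks at -0.72 (limma adjusted p = 0.0310), as it did with edgeR at -0.71 (adjusted p = 0.0301) and with DESeq2 at -0.71 (adjusted p = 0.00769).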

How the data were processed

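The authors merged read pairs and trimmed adapters with BBMerge, counted miRNAs with mirDeep2 on GRCm38 with miRBase, and summed identical mature sequences. The deposited values are a signal, reads divided by a DESeq2 size factor within the 6 libraries of each of 8 tables. Tables were therefore scaled apart, and each library column was divided by its sum to give RPM, which removes the size factors. Whole reads were recovered from the deposited signal for 100% of values (tolerance 0.001), and the 12 control columns that recur in a second table gave identical reads. The authors' own comparison tables (log2 fold changes and s-values) were not used, and 0 columns lacked a group.

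Libraries were placed by the tables that hold them: a column shared by the KO and A537T tables is the control. Each library is taken to be a separate mouse, as the study describes. If animals or preparations were shared, p-values measure only the spread between these libraries.

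The test was limma 3.58.1 (R 4.3.3) with a variance trend on log2(RPM + 1), 1 mean per group over 36 libraries, for the 514 miRNAs with a mean of at least 1 RPM, two-sided, Benjamini-Hochberg per contrast at 0.05. Fold changes on this scale understate the change of low miRNAs. There were 8 mutant, 8 TRAMP, 8 age and 7 difference contrasts. Ratios used exact permutation within lines (Python 3.11.15). Alternatives were pseudocount, filter, scaling, variance trend, edgeR 4.0.16, DESeq2 1.42.0, single tables and leaving out each library. Named beside the members were miRNAs sharing the seed of miR-16-5p, partner arms, and for 3 members the 3 most similar miRNAs. Members, lists and tests were chosen with earlier results of these data known. Scripts were tested on simulated counts. Intervals cover the spread between libraries, and reads carry no molecular identifiers.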

Additional observations from a re-analysis of the deposited data

Results flagged for a closer look

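Of the results here, 5 differed between ages by a test of the difference itself. On the log2 scale, the TRAMP difference at 30 weeks minus that at 10 weeks in KO was 0.84 for miR-16-5p (SE 0.31, limma adjusted p = 0.0383), 1.33 for miR-16-1-3p (SE 0.40, adjusted p = 0.0164) and 1.26 for miR-16-2-3p (SE 0.44, adjusted p = 0.0303). These 3 arms come from Mir16-1 and Mir16-2. In the same contrast 31.9% of all tested miRNAs were called and 27.8% were higher. The median over all tested miRNAs there was 0.62. For miR-16-2-3p the levels were 6.50, 9.61 and 7.50 RPM in KO-TRAMP and 5.33, 3.86 and 5.41 RPM in KO at 10 weeks, and 7.55, 9.49 and 7.75 RPM and 1.96, 1.10 and 1.67 RPM at 30 weeks. The call of miR-16-2-3p was lost without any one of libraries 7, 9, 17, 18, 23, 31 and 33 (1.12 to 1.30), and it also missed with median-of-ratios scaling (0.73), TMM (0.86), edgeR (1.21), DESeq2 (1.05) and no filter. Calls of the other arms that single libraries decide are given above.

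For miR-503-5p the same change was 2.13 in WT (SE 0.47, limma adjusted p = 0.00439) and 1.51 in KO (SE 0.47, adjusted p = 0.0175). Of all tested miRNAs, 9.34% were called for this change in WT and 31.9% in KO. In WT miR-503-5p stood at 1.32, 1.46 and 2.19 RPM with TRAMP and 6.81, 5.10 and 4.44 RPM without at 10 weeks, and at 10.9, 1.98 and 6.68 RPM and 1.41, 3.85 and 2.93 RPM at 30 weeks. The KO value lost its call without library 7 (1.34) or library 23 (1.35), with median-of-ratios scaling (1.00, limma adjusted p = 0.0736), with TMM (1.14, adjusted p = 0.0563) and with DESeq2 (1.36, adjusted p = 0.0568). The causes were not tested.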

How the results depend on the processing

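Of 50 TRAMP calls of members, 46 kept direction and threshold under all alternatives, the exceptions being miR-15a-5p in WT and on average and miR-16-5p and miR-497a-5p in A537T, all at 10 weeks, and leaving out single libraries gave 47 to 53 calls. Over the 8 age contrasts, 4 calls became 7 with median-of-ratios scaling, 7 with TMM, 9 without muscle miRNAs in the total, 8 with edgeR and 8 with DESeq2, and 3 to 7 when single libraries were left out (7 without library 30). Over the 8 mutant contrasts, 0 became 2, 2, 2 and 5 with median-of-ratios, TMM, edgeR and DESeq2, and 0 to 1 without single libraries (1 without library 28). For differences of differences, 2 became 1 with no filter, 4 without muscle miRNAs, and 0 to 3 without single libraries. The 7 ratio calls became 6 to 10 without single libraries.

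Among the ratios and the values given one by one, those that changed sign had not passed limma's test or the ratio test with all libraries, although 3 of them passed elsewhere: miR-16-5p in KO at 30 weeks (0.36) and miR-15a-5p with TRAMP in KO at 10 weeks (0.58) with DESeq2, and miR-15b-3p with age without TRAMP (0.27 and 0.33) with median-of-ratios scaling and DESeq2. Of 145 further values of members and relatives, not given one by one, 62 took the other sign under some setting. Of the same 145, 4 passed when 1 library was left out. Without muscle miRNAs, miR-15b-3p with age without TRAMP was at -0.0652. With single libraries left out, miR-16-5p in KO at 30 weeks ran from -0.124 to 0.275, miR-15a-5p with TRAMP at 10 weeks from -0.0646 to 0.374 in KO and from -0.0319 to 0.492 in A537T, the age difference of the ratio of miR-15b-5p to miR-16-5p with TRAMP from -0.0967 to 0.0363, and that of miR-15b-5p to miR-15b-3p from -0.0337 to 0.241 without TRAMP and from -0.115 to 0.0131 with it. The cause was not tested. No paired analysis was possible because the columns carry no replicate number. Depth limits library 35 and arms with few reads, such as miR-497a-3p.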
